A study of Mus musculus with 4 samples.

Results

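Long-term hematopoietic stem cells, the rare cells that rebuild blood for the life of an animal, are marked by a set of genes whose RNA is higher in them than in the progenitors they give rise to. The set was examined in LSK cells, comparing wild-type mice with mice that carry 1 mutant Asxl1 allele. It was chosen as 39 gene symbols, of which 38 had rows in the deposited table of 13749 symbols, while Ramp2 was not analysed here. The test required a mean of at least 1 FPKM (fragment abundance scaled to transcript length and library total) over the 4 libraries, which 35 of the 38 genes and 11083 genes in all reached. Just inside that limit stood Socs2 at a mean of 1.03 FPKM and Palld at 1.13, and outside it stood Zbtb20 at 0.932, Neo1 at 0.841 and Rarb at 0.333.

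The mice were C57BL/6 and 8 weeks old, with the genotype Asxl1+/+ in the wild-type group (WT) and Asxl1G643fs/+, a heterozygous frameshift knock-in, in the other (KI). Asxl1 encodes a chromatin regulator that is mutated in myeloid malignancies. LSK cells lack lineage markers and carry Sca-1 and Kit, and they were sorted from 8 mice of each genotype. Each genotype gave 2 libraries, numbered 1 and 2, and paired values below are given with number 1 before number 2. The labels do not say whether the libraries of a genotype came from separate animals, so that p-values reflect only how far these libraries scatter, and that scatter may be technical.

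Long-term stem cells are mostly quiescent and sit in marrow niches, where ligands such as angiopoietin and cytokines act on them. The genes that mark them encode transcription factors that hold them out of differentiation, receptors and junction proteins that they share with endothelium, efflux pumps and detoxifying enzymes, and brakes on growth signals. LSK cells are for the most part multipotent progenitors, so that a level in this sort averages stem cells with their progeny. In such a bulk sample, fewer stem cells and less RNA per stem cell cannot be told apart.

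The genes of the LSK gate were present, with Kit at 81.9 to 105 FPKM and Cd34 at 316 to 452 FPKM. Ly6a, which encodes Sca-1, stood at 20.7 to 41.9 FPKM and the stem cell marker Slamf1 at 2.70 to 4.83 FPKM. The 4 libraries differed more by number than by genotype. The median log2(FPKM + 1) of the genes tested was 3.51 (WT-1) and 3.53 (KI-1) for number 1, and 3.78 (WT-2) and 3.77 (KI-2) for number 2. Values of KI are therefore also set against the WT library of the same number. FPKM values carry no read counts, so that the depth behind them is unknown. Asxl1 itself, whose level is no check of a heterozygous frameshift, stood at 20.8 and 18.8 FPKM in the WT libraries and 22.2 and 19.1 FPKM in the KI libraries.

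Most of the stem cell genes stood lower in KI than in WT, by small amounts, and no gene passed the test. Of the 35 genes tested, 27 (77.1%) were lower in KI in both numbers, against 25.5% of all genes tested. Another 3, Socs2, Fgd5 and Nkx2-3, were higher in both numbers, against 28.7% of all genes. The other 5, Ifitm1, Tek, Eya2, Palld and Cd63, went opposite ways in the numbers, against 45.8% of all genes. The median log2 fold change was -0.20 over the 35 genes and 0.0075 over all genes, with -0.18 in number 1 and -0.26 in number 2. All log2 fold changes are on the log2(FPKM + 1) scale, which understates the change of low genes. Limma, with genotype as its only term, called 0 of the 35 and 0.0% of all genes at an adjusted p of 0.05, and gave each of the 35 an adjusted p of 1. At an unadjusted p under 0.05 it had 1 of the 35 and 47 of all genes, which is 0.424%. The spread in that test holds the difference between the numbers, and 0 calls therefore do not show that the genotypes were alike.

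In the same libraries, most markers of granulocyte-monocyte progenitors stood higher in KI. The summed level of 10 markers of granulocyte-monocyte progenitors was 601 and 661 FPKM in the WT libraries and 1079 and 775 FPKM in the KI libraries, and 8 of the 10 were higher in KI in both numbers. Mpo held most of that sum, at 390 and 385 FPKM in the WT libraries and 712 and 456 FPKM in the KI libraries. Of the 10, 1 marker, Csf2ra, was lower in KI in both numbers. The part of granulocyte-monocyte progenitors in the lower levels of the stem cell genes was not tested.

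The medians depended on which libraries entered, because leaving one out unbalances the numbers between the genotypes. The median over the 35 genes was -0.55 without WT-1 and -0.50 without KI-2, but 0.13 without WT-2 and 0.053 without KI-1. The median over all genes shifted too, to -0.13 without WT-1 and -0.12 without KI-2, and to 0.14 without WT-2 and 0.13 without KI-1. The number of the 35 genes lower in KI was 34 without WT-1, 12 without WT-2, 14 without KI-1 and 33 without KI-2. Limma then called 7 genes of all tested without WT-1, 37 without WT-2, 12 without KI-1 and 7 without KI-2. The 2 comparisons within a number share no library, but the labels do not say whether they share animals. They may thus not be independent repeats. Of the 35 genes, 29 were lower in number 1 and 30 in number 2, against 46.8% and 50.1% of all genes tested.

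**Figure D1:**
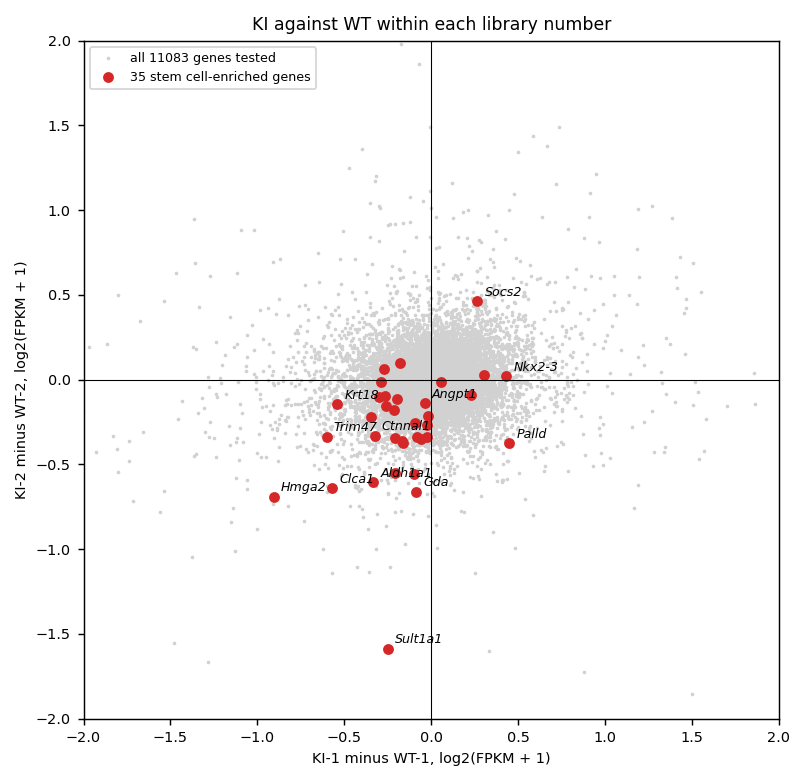
Difference of KI from WT in log2(FPKM + 1) within library number 1 (horizontal axis) and number 2 (vertical axis), for the 35 stem cell genes in red and all 11083 genes tested in grey, 13 of which lie outside the axes. Most red points lie at the lower left, where KI was lower in both numbers, and Socs2 lies in the upper right.

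By at least 0.2 on the log2 scale in both numbers, 9 of the 35 genes (25.7%) were lower in KI, against 3.94% of all genes, and Socs2 alone was higher, against 3.93%. Socs2 reached the filter only through the KI libraries, so that its place in this count is no support for a difference. The 9 were Hmga2, Clca1, Trim47, Aldh1a1, Art4, Sult1a1, Tie1, Ctnnal1 and Ltb. Both KI libraries lay below both WT libraries for Hmga2, Ctnnal1 and Angpt1, which is 8.57% of the 35 and close to the 7.06% of all genes. Both KI libraries lay above both WT libraries for 0 of the 35, against 6.39% of all genes.

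The transcription and chromatin genes include the factors that define stem cell identity, and 5 of the 7 tested were lower in KI in both numbers, with a median log2 fold change of -0.21. Hmga2, an AT-hook chromatin protein known for self-renewal of fetal stem cells, lies at chr10:120361268-120476469 (GRCm38). It stood at 3.26 and 2.62 FPKM in the WT libraries and 1.27 and 1.24 FPKM in the KI libraries. Both KI libraries lay below both WT libraries, by 61.0% in number 1 and 52.6% in number 2. The log2 fold change was -0.80 with SE 0.26, and the unadjusted p of 0.0206 became 1 after adjustment over all genes in limma. The exact permutation test, two-sided, had p = 0.333, the smallest that 2 against 2 libraries allow. Hmga2 was listed with 1 of its 2 RefSeq transcripts. It was unlike most of the set in that it stood no higher in the libraries numbered 2.

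Hlf, a leucine zipper factor that keeps stem cells quiescent, stood at 42.7 and 72.1 FPKM in the WT libraries and 37.9 and 55.8 FPKM in the KI libraries, and so was 11.2% lower in number 1 and 22.6% lower in number 2. Mecom, which encodes the zinc finger factor EVI1, stood at 13.7 and 22.7 FPKM in the WT libraries and 13.1 and 17.5 FPKM in the KI libraries. Mllt3, a reader of acylated histones that sustains human stem cells, stood at 7.02 (WT-1) and 12.4 (WT-2) against 6.50 (KI-1) and 8.14 (KI-2) FPKM. In these 3 genes the 2 libraries numbered 1 were close together, and KI-2 lay between them and WT-2. Prdm16, a PR-domain factor needed for stem cell maintenance, stood at 2.73 and 4.40 FPKM in the WT libraries and 2.21 and 3.78 FPKM in the KI libraries, so that the genotypes overlapped.

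The homeobox gene Nkx2-3 went the other way, with 6.18 FPKM in WT-1 and 8.68 in KI-1, and nearly the same level in WT-2 (22.2) and KI-2 (22.6). Its log2 fold change was 0.23 with SE 0.65, or 0.15 in the deposited log2 values, so that the spread between libraries was larger than the difference. Eya2, a transcriptional coactivator, stood at 24.9 ± 8.93 FPKM for WT against 25.6 ± 5.20 for KI (SD, n = 2), higher in KI-1 and lower in KI-2 than the matching WT library. Below the filter, Rarb, a retinoic acid receptor, ranged from 0.148 to 0.548 FPKM. Zbtb20, a zinc finger repressor, stood at 1.16 and 0.772 FPKM in the WT libraries and 1.80 and 0.000166 FPKM in the KI libraries. A value so close to 0 can be a failed estimate, and no difference is drawn from it.

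The receptors, their ligand and junction proteins are shared between stem cells and endothelium, and 5 of the 7 tested were lower in KI in both numbers, with a median log2 fold change of -0.16. Angpt1, the ligand of the receptor encoded by Tek, was abundant and even, at 135 and 139 FPKM in the WT libraries and 132 and 126 FPKM in the KI libraries. Both KI values lay below both WT values, and the log2 fold change was -0.088 with SE 0.22, or -0.16 from the highest transcript alone and -0.046 under quantile scaling. Tek itself stood at 6.43 (WT-1) and 7.18 (WT-2) against 5.56 (KI-1) and 7.74 (KI-2) FPKM, lower in KI in number 1 and higher in number 2. Tie1, the partner receptor of Tek, at chr4:118471191-118489849, stood at 20.5 and 27.5 FPKM in the WT libraries and 15.9 and 23.5 FPKM in the KI libraries. It was thus 22.4% lower in number 1 and 14.6% lower in number 2, with a log2 fold change of -0.28 and SE 0.28.

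Gpr56, an adhesion receptor named Adgrg1 in RefSeq, was the most abundant gene of the set, at 394 and 581 FPKM in the WT libraries and 344 and 536 FPKM in the KI libraries. It was 12.7% lower in KI in number 1 and 7.71% lower in number 2. Esam, a junction protein used to sort stem cells, was 17.9% and 10.9% lower, at 16.5 ± 6.75 FPKM for WT against 14.3 ± 6.60 for KI (SD, n = 2). Robo4, a guidance receptor that helps anchor stem cells to their niche, was 7.17% and 18.1% lower, at 8.02 ± 1.38 and 6.95 ± 0.586 FPKM. Fgd5, whose locus is used to report stem cells, was higher in KI, at 3.87 and 7.51 FPKM in the WT libraries and 5.01 and 7.68 FPKM in the KI libraries. Neo1, a receptor for netrins and repulsive guidance molecules, was below the filter, at 0.536 and 1.74 FPKM in the WT libraries and 0.369 and 0.724 FPKM in the KI libraries.

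Transporters and enzymes were the one group in which every gene tested, 8 of 8, was lower in KI in both numbers, and their median log2 fold change of -0.38 was the lowest of the 6 groups. Clca1 (Entrez 12722, named Clca3a1 in RefSeq), a chloride channel accessory protein at chr3:144729677-144760977, stood at 4.59 and 7.74 FPKM in the WT libraries and 2.77 and 4.61 FPKM in the KI libraries. The difference was nearly equal in the numbers, 39.7% lower in number 1 and 40.5% in number 2, and the log2 fold change was -0.60 with SE 0.34. Aldh1a1, which oxidises retinaldehyde and other aldehydes, at chr19:20492583-20643463, stood at 26.1 and 46.0 FPKM in the WT libraries and 20.5 and 29.9 FPKM in the KI libraries, with a log2 fold change of -0.47 and SE 0.34. KI was 21.5% lower in number 1 and 35.0% lower in number 2.

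Sult1a1, a phenol sulfotransferase at chr7:126672865-126690443, stood at 5.50 and 28.5 FPKM in the WT libraries and 4.47 and 8.80 FPKM in the KI libraries. Its log2 fold change of -0.92 was the lowest of the set with a pseudocount of 1 but had an SE of 0.71, and WT-2 alone stood far above the other 3 libraries. With a pseudocount of 0.1, Hmga2 was lower at -1.16 against -0.99 for Sult1a1. Without WT-2 the log2 fold change was 0.17, and without WT-1 it was -2.01, the only call among the 35 genes when a library was left out (limma adjusted p = 0.00168, with 1 WT library against 2 KI libraries). Art4, an ADP-ribosyltransferase family member that carries the Dombrock blood group in humans, stood at 7.33 (WT-1) and 19.6 (WT-2) against 6.22 (KI-1) and 13.0 (KI-2) FPKM, with KI 15.2% lower in number 1 and 33.4% in number 2.

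Gda, a guanine deaminase, was 8.90% lower in KI in number 1 and 43.5% in number 2, at 3.74 ± 2.40 FPKM for WT against 2.46 ± 0.859 for KI (SD, n = 2). The transglutaminase gene Tgm2 was 11.3% and 23.3% lower, at 35.4 ± 19.3 FPKM for WT against 28.4 ± 13.0 for KI. The efflux pump Abcg2, which gives stem cells their dye-excluding phenotype, stood at 20.0 and 24.6 FPKM in the WT libraries and 16.5 and 22.9 FPKM in the KI libraries. The other pump, Abcb1a, was close to the filter at 1.01 to 1.51 FPKM, and was 3.60% and 28.3% lower in KI. The differences of Tgm2 and Abcg2 lay within the SD of either genotype, while those of Gda and Abcb1a lay within the SD of WT but above that of KI.

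**Figure D2:**
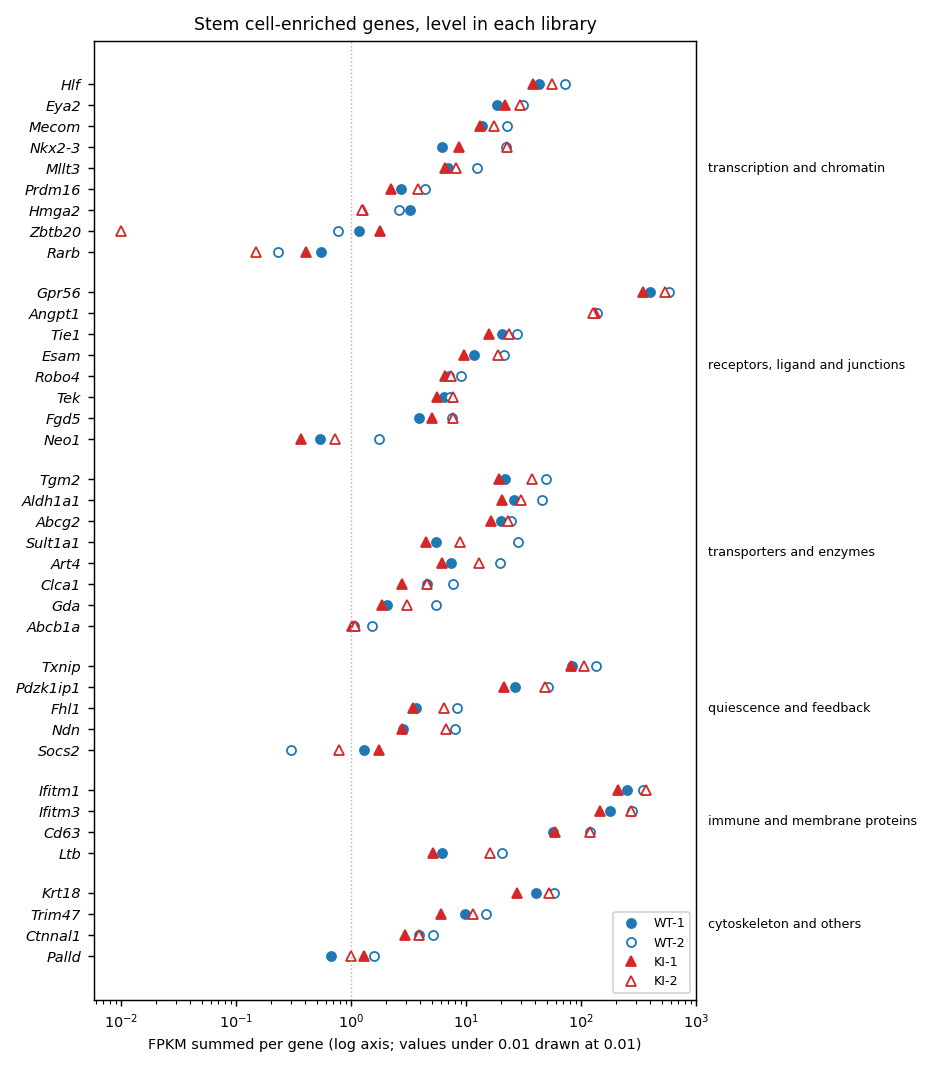
Level of the 38 stem cell genes in FPKM (logarithmic axis) in each library, grouped by role and ordered by mean level, with WT as circles and KI as triangles, number 1 filled and number 2 open. The dotted line marks the mean of 1 FPKM required for testing; open symbols lie to the right of filled ones for most genes, and the triangles lie to the left of the circles of the same number for 27 of the 35 genes tested.

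Promoter sequence was examined for motifs of blood factors in RefSeq windows (GRCm38.p6) that run from 250 bases before to 50 bases after an annotated transcription start. Of the 38 genes, 33 were matched by Entrez ID, with 42 windows. The motifs were AGATAA for GATA factors, CCGGAAG for ETS factors, TGTGGT for RUNX factors and the E-box CAGCTG, each sought on both strands. Neighbouring matches of different motifs can share end bases, but none did in the windows of this set. The windows of Hmga2 and Clca1 are shown because these genes had the lowest log2 fold changes that were alike in the 2 numbers. That of Art4 is shown because it was the one window of the set with both a GATA and an E-box motif. Capitals mark motif matches, and each window is written 5′ to 3′ on the strand of the gene.
Hmga2, chr10:120476420-120476719, - strand: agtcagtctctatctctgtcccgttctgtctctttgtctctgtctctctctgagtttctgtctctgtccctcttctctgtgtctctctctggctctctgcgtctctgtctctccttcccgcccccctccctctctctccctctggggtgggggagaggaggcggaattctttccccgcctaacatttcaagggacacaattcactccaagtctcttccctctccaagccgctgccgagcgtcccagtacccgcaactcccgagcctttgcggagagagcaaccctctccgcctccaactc
Clca1, chr3:144760928-144761227, - strand: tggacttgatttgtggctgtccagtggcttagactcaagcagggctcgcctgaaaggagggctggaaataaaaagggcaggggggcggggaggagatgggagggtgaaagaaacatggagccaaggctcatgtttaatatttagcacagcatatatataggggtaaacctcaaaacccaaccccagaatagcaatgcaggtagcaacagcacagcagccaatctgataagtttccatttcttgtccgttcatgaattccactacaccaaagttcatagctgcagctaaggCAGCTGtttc
Art4, chr6:136857551-136857850, - strand: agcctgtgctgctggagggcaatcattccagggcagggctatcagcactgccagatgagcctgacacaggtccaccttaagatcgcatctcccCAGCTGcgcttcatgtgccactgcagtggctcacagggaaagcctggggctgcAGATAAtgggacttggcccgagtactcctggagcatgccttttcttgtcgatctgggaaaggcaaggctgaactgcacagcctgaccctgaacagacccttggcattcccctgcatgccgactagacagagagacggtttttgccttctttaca
The Hmga2 window held none of the motifs, which says only that these letters are not in it. The Clca1 window held an E-box that begins 40 bases after the start. In the Art4 window the E-box begins 157 bases and the GATA motif 104 bases before the start. Over the 42 windows, the E-box occurred in 10 (23.8%), against 16.3% of all 32851 windows and 14.5% of the 11397 windows of tested genes. GATA occurred in 3 windows (7.14%), against 11.2% and 6.46%, and RUNX in 4 (9.52%), against 16.8% and 12.6%. The ETS motif occurred in 0 of the 42 windows, against 8.86% and 18.6%. These shares describe the windows, and a match is not a measured binding site.

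The genes of quiescence and feedback were mixed, with 4 of 5 lower in KI in both numbers and Socs2 higher. Socs2, an inhibitor of cytokine signalling that STAT5 induces, stood at 1.29 and 0.300 FPKM in the WT libraries and 1.75 and 0.791 FPKM in the KI libraries. KI was the higher in both numbers, but Socs2 reached the mean of 1 FPKM only through the KI libraries, at 0.796 ± 0.701 FPKM for WT against 1.27 ± 0.682 for KI (SD, n = 2), and no test is read from it. Its log2 difference was 0.36, and 0.78 with a pseudocount of 0.1. The table lists 1 of its 4 RefSeq transcripts, so that these values cover that transcript only. Txnip, which binds thioredoxin and limits glucose uptake, stood at 83.1 and 134 FPKM in the WT libraries and 81.8 and 106 FPKM in the KI libraries, nearly equal in number 1 and 21.1% lower in KI in number 2. Pdzk1ip1, a small membrane protein, was 19.4% and 6.81% lower in KI. Fhl1, a LIM-domain protein, was 6.88% and 23.4% lower. Ndn, an imprinted growth suppressor, was 1.69% and 15.7% lower, at 5.40 ± 3.67 FPKM for WT against 4.75 ± 2.82 for KI (SD, n = 2).

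The immune and membrane genes followed the library number far more than the genotype. Ltb, the membrane anchor of the lymphotoxin heterotrimer, stood at 6.17 and 20.7 FPKM in the WT libraries and 5.20 and 16.1 FPKM in the KI libraries. It was lower in KI by 15.8% in number 1 and 22.1% in number 2, but the ratio of number 2 to number 1 was 3.35 in WT and 3.10 in KI. The interferon-induced transmembrane genes Ifitm1 and Ifitm3 are neighbours on chromosome 7. Ifitm1 stood at 252 and 348 FPKM in the WT libraries and 208 and 363 FPKM in the KI libraries, and Ifitm3 at 178, 274, 146 and 271 FPKM in the same order. Both were lower in KI-1 than in WT-1, by 17.3% and 18.4%, and close to equal in number 2. Because they are related in sequence, how their shared reads were assigned can affect both values. Cd63, a tetraspanin of vesicles, did not separate the genotypes, at 88.6 ± 44.2 FPKM for WT against 89.2 ± 41.6 for KI (SD, n = 2).

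Of the remaining genes, Trim47, a RING-finger ubiquitin ligase family member at chr11:116105750-116110235, stood at 9.76 and 14.9 FPKM in the WT libraries and 6.09 and 11.6 FPKM in the KI libraries. It was 37.6% lower in KI in number 1 and 22.3% lower in number 2, with a log2 fold change of -0.47 and SE 0.36, or -0.22 in the deposited log2 values. Ctnnal1, an alpha-catenin-like protein also called alpha-catulin, at chr4:56810935-56865375, stood at 3.91 (WT-1) and 5.16 (WT-2) against 2.91 (KI-1) and 3.90 (KI-2) FPKM. The 2 KI values lay just below the 2 WT values, 25.4% and 24.4% lower within the numbers. The keratin gene Krt18 was 32.1% and 9.78% lower, at 49.2 ± 12.0 FPKM for WT against 39.9 ± 17.3 for KI (SD, n = 2). Palld, an actin-bundling protein, went opposite ways, at 0.674 and 1.58 FPKM in the WT libraries and 1.29 and 0.991 FPKM in the KI libraries.

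The set covered a wide range of expression. The median gene stood at 11.7 FPKM, the 59.5th percentile of all 13749 genes, 7 genes stood at or above the 90th percentile and 6 below the 25th. Among the 5 genes with a mean of at least 100 FPKM, Gpr56, Ifitm1, Ifitm3, Angpt1 and Txnip, the log2 fold changes ran from -0.18 to -0.088. Those beyond -0.40 were of genes between 1.24 and 46.0 FPKM in a library. The table lists fewer transcripts than RefSeq for 18 of the 38 genes, and a sum then covers the listed ones only.

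The difference between the library numbers was larger than that between genotypes for most of the set. In limma with number as the only term, 25 of the 35 genes (71.4%) were higher in the libraries numbered 2 and 0 were lower, against 35.6% and 4.6% of all genes. The median difference was 0.63 over the 35 genes and 0.27 over all genes. With every library shifted to the same median, 10 of the 35 were higher and 1 was lower, against 9.12% and 10.4% of all genes, with medians of 0.37 and 0.014. After that shift Ltb was higher by 1.27, Nkx2-3 by 1.23, Ndn by 0.89, Art4 by 0.87, Tgm2 by 0.78, Pdzk1ip1 by 0.77 and Cd63 by 0.76 on the log2 scale. Esam, Fhl1 and Ifitm3 were the other genes called higher. The 1 lower gene was Socs2, which reached the filter only through the libraries numbered 1, and no difference is read from its call. Angpt1 (log2 difference -0.015 unshifted), Hmga2 (-0.13) and Socs2 (-0.72) were the only genes of the 35 not higher in number 2 before the shift. The count of all genes called between the numbers, 4452, was 1414 without WT-2 and 1162 without KI-2.

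**Figure D3:**
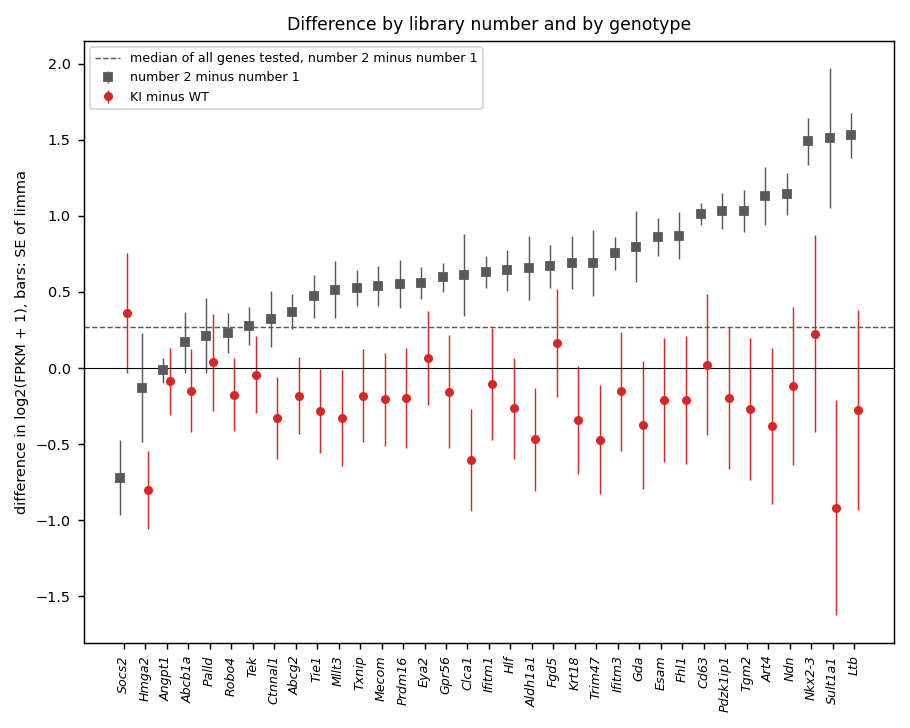
Difference in log2(FPKM + 1) between libraries numbered 2 and 1 (grey squares) and between KI and WT (red circles) for the 35 genes tested, with bars of 1 SE from limma and the median over all genes for the number as a dashed line. The number difference passed the threshold for 25 genes, while most red points lie just below 0 and none of them passed it.

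Of the 38 genes, 15 had 2 or more listed transcripts, and in 9 of them the same transcript led in all 4 libraries, while in 6 it did not. In Gpr56 one transcript held between 94.0% and 96.2% of the gene in the 4 libraries, and in Mecom one held between 77.4% and 85.5%. In Tek the transcript NM_013690 held 99.9% and 46.3% in the WT libraries and 39.2% and 77.5% in the KI libraries, while the sum of the gene stayed between 5.56 and 7.74 FPKM. In Pdzk1ip1 the transcript NM_026018 held 57.1% in WT-2 and between 21.9% and 32.8% in the others. In Neo1, Palld, Angpt1 and Zbtb20, too, 1 library had another leading transcript than the other 3. The sum of Tek was thus steadier than its split between transcripts, and no genotype difference in transcript use is read from 2 libraries each.

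**Figure D4:**
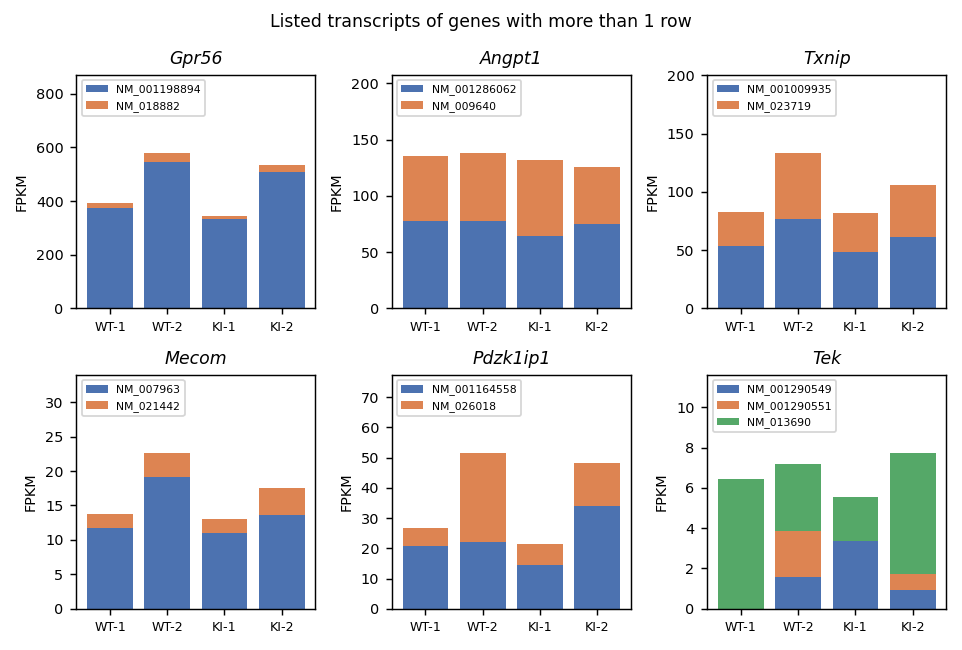
Stacked FPKM of the listed transcripts of Gpr56, Angpt1, Txnip, Mecom, Pdzk1ip1 and Tek in each library, 1 colour per RefSeq transcript. The stacks of Gpr56, Txnip and Mecom are split alike in all libraries, while those of Tek are split differently in each.

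The authors' deposited table holds a comparison of KI with WT per transcript. In the authors' deposited table, 42 of the 54 transcripts of the set had a fold below 1 for KI over WT and 12 a fold above 1. That share was not computed over all transcripts. Per gene, 48.8% of all genes tested were lower in KI in the deposited log2 values. Some of the 54 transcripts, such as NM_026820 of Ifitm1, were near 0 FPKM, and the direction of their fold carries no meaning. Of the 54, 14 (25.9%) had an unadjusted p under 0.05 and a lower level in KI, against 10.5% of all 18691 transcripts, and 0 had one with a higher level, against 11.1%, per the authors' deposited table. The 14 came from 13 genes, with Hmga2 the largest at 1.52-fold lower (p = 0.00124 in the authors' deposited table), followed by Clca1 at 1.37-fold (p = 0.00823). These shares had no filter on level, so that transcripts near 0 FPKM entered them. Neo1 and Rarb, whose means were below the filter, were among the 13 genes. Adjusted values in the authors' deposited table ranged from 0.108 to 0.229 for these 14, so that 0 passed 0.05, against 0.0161% of all transcripts. The deposited log2 values behind that comparison hold almost no difference between the library numbers, with an SD over transcripts of 0.0045 against 0.475 in log2(FPKM + 1), so that its p-values do not count that spread.

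Other genes related to the set by function were examined in 5 lists. Of 26 other genes reported as high in long-term stem cells, 24 were tested, 18 were lower in KI in both numbers and 1 was higher, with a median log2 fold change of -0.19. The lowest was Ldhd, a mitochondrial lactate dehydrogenase, at 2.86 and 4.80 FPKM in the WT libraries and 1.92 and 2.42 FPKM in the KI libraries. Mycn, a MYC family factor, stood at 12.3 ± 3.29 FPKM for WT against 8.18 ± 3.83 for KI (SD, n = 2). Sdpr, a caveolar protein, stood at 5.63 ± 2.84 and 3.30 ± 0.629 FPKM, and the lectin receptor gene Clec1a at 3.53 ± 1.93 and 1.97 ± 0.600 FPKM. Of 20 transcription factors of stem and progenitor cells, 19 were tested, and 12 were lower in both numbers and 1 higher, with a median of -0.13. Gata2 stood at 74.4 and 71.5 FPKM in the WT libraries and 51.0 and 69.5 FPKM in the KI libraries, and Sox4 at 59.8, 58.7, 46.6 and 52.4 FPKM in the same order.

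Genes listed with the signalling genes were mixed. A list of 19 genes was set beside the Tie, Robo and adrenomedullin receptors, and not all of them are direct partners. Of the 19, 10 had rows and 5 were tested, of which 1 was lower in KI in both numbers and 2 were higher. Calcrl, the adrenomedullin receptor that works with Ramp proteins, was lower at 12.9 ± 1.60 FPKM for WT against 10.6 ± 0.606 for KI (SD, n = 2). Vegfa, on the list but not a ligand of the Tie, Robo or adrenomedullin receptors, was higher. It stood at 6.69 and 3.43 FPKM in the WT libraries and 7.89 and 7.88 FPKM in the KI libraries. Of 16 retinoid and aldehyde genes, 9 had rows and 7 were tested, of which 3 were lower and 2 higher in both numbers, with a median of -0.042. Of 20 thioredoxin and cytokine feedback genes, 18 were tested, of which 4 were lower and 8 higher in both numbers, with a median of 0.011. Arrdc2, an arrestin-domain relative of Txnip, was lower at 5.45 ± 0.843 FPKM for WT against 3.51 ± 0.550 for KI, and Cish, a relative of Socs2, stood at 9.60 ± 5.09 and 11.3 ± 5.48 FPKM. None of the 5 lists was compared with the set by a test, and limma called 0 of their genes (adjusted p = 1).

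Markers of other cells also differed between the libraries, beside those of granulocyte-monocyte progenitors given above. The summed level of 8 B cell markers was 27.3 (WT-1) and 72.3 (WT-2) against 35.4 (KI-1) and 126 (KI-2) FPKM, with 5 of 8 higher in KI in both numbers. The summed level of the 6 listed neutrophil markers was 42.2 (WT-1) and 90.3 (KI-1) FPKM for number 1, but 6.68 (WT-2) and 5.62 (KI-2) FPKM for number 2. Among 15 endothelial markers, 10 had rows, and their sum was lower in KI in both numbers, at 122 and 191 FPKM in the WT libraries and 110 and 173 FPKM in the KI libraries. Of the 10, 4 were lower in KI in both numbers and 2, Emcn and Cdh5, were higher. Pecam1, Emcn and Egfl7 held most of that sum, and these are also expressed by stem cells. Vwf, which endothelium, megakaryocytes and some stem cells express, stood at 4.28 and 7.86 FPKM in the WT libraries and 2.83 and 5.22 FPKM in the KI libraries. The defining endothelial genes Cdh5 (0.0495 to 0.144 FPKM), Flt1 (0.0381 to 0.0574) and Kdr (0.122 to 0.896) were near 0 in all 4 libraries. The part of endothelial RNA in the lower levels of the set was not tested. The megakaryocyte markers summed to between 52.1 and 72.8 FPKM, with 2 of 8 lower and 2 higher in KI in both numbers. The erythroid sum was lower in KI in both numbers, at 200.2 and 278 FPKM in the WT libraries and 178 and 227 FPKM in the KI libraries, most of it from Car2. Of the 8 erythroid markers with rows, 2 were lower in KI in both numbers (Car1 and Car2) and 2 were higher (Hba-a1 and Tfrc). The T and NK cell sum, from 5 of 8 markers, was lower as well, at 43.3 and 51.9 against 36.7 and 47.5 FPKM. Nearly all of it was Nkg7, at 40.9 and 46.1 against 33.7 and 43.4 FPKM. Nkg7 was the 1 marker of the 5 lower in KI in both numbers, and 1, Cd4, was higher. Of 11 stromal markers, 6 had rows, and their sum was higher in KI in both numbers and ran from 11.0 to 20.2 FPKM. Of the 6, 3 were higher and 1 was lower in KI in both numbers. The lower one, Pdgfrb, held the largest part of the sum, at 10.3 and 11.4 against 10.2 and 10.7 FPKM. The other stromal markers reached at most 4.94 FPKM (Col1a2 in KI-2).

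**Figure D5:**
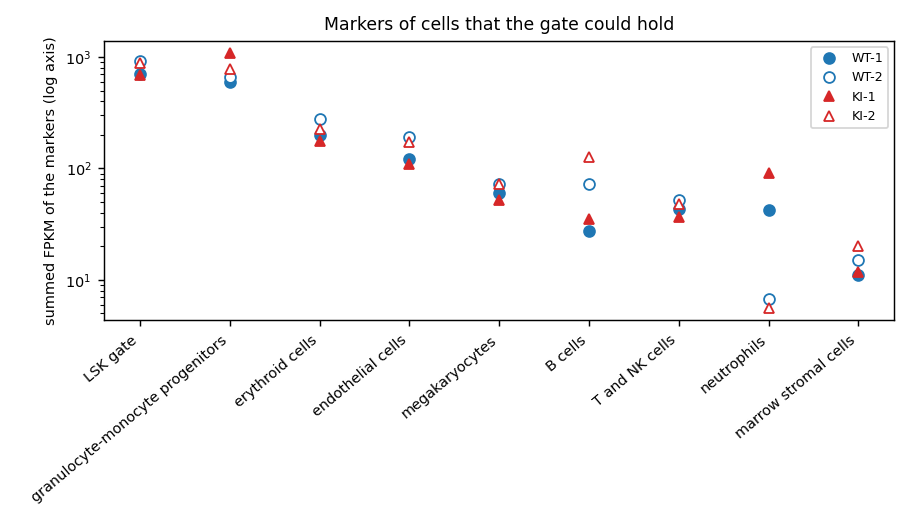
Summed FPKM (logarithmic axis) of marker genes of cells that the sort could hold, per library, with WT as circles and KI as triangles, number 1 filled and number 2 open. Granulocyte-monocyte progenitor and B cell markers are higher in KI of each number, and neutrophil markers separate the numbers.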

How the data were processed

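RNA of LSK cells was sequenced in 2 WT and 2 KI libraries. Per the submitters' processing notes, the tools were TopHat and Cufflinks and the build was GRCm38 (mm10). Tool versions are not given in the sources used here. In each library, the authors' deposited FPKM values cover 18691 RefSeq transcripts, with a lowest value of 1e-06 and 0 values of exactly 0. The authors also deposited normalized log2 values, a signed fold (given as a score) with a test result, and p-values per transcript, by methods that no source used here states. Values that low are estimates and not whole reads, so that the depth cannot be known from them and counting intervals are not given.

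FPKM was summed per gene symbol, and 11083 genes with a mean of at least 1 over the 4 libraries were tested as log2(FPKM + 1) with limma 3.58.1 in R 4.3.3 (variance trend, two-sided, Benjamini-Hochberg adjustment over all genes at 0.05), with genotype or library number as the only term. The test was checked on simulated data with planted differences larger than those of any stem cell gene here. Its requirement that planted differences be found applied only to simulated data without a difference between the library numbers. The real libraries hold that difference, and the check does not show that differences as small as these would be found in them. Alternatives were another pseudocount, filter, scaling, transcript choice, the deposited log2 values, the library number as a block and leaving out each library. For the deposited log2 values, a gene was given the unweighted mean of its listed transcripts.

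The members and lists were chosen with earlier results of these data known. Values in every library were to be printed for genes that differed by at least 0.2 in both numbers, that went opposite ways by 0.2, or that reached 100 FPKM, and up to 4 genes per related list were to be named by largest difference of one sign in both numbers. Further genes were given library values after their values were seen. The related lists are those named in the results. Positions and promoters came from RefSeq for GRCm38.p6, matched by Entrez ID.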

Additional observations from a re-analysis of the deposited data

How the results depend on the processing

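Between KI and WT, the count of genes called by limma stayed 0 with a pseudocount of 0.1, no filter, median or quantile scaling, the highest transcript, the deposited log2 values and no variance trend, with 45 to 3133 genes at an unadjusted p under 0.05. It was 1 with the library number as a block (Mir8094, named after its value was seen) and ranged from 7 to 37 when 1 library was left out. With that block 0 of the 35 stem cell genes were called, with a smallest adjusted p of 0.678, while 11 had an unadjusted p under 0.05, against 7.1% of all genes. Libraries of the same number deviated together (r = 0.691 across 11083 genes, which are not independent), but the labels tie no 2 libraries, so that a pairing is only a hint from the data. The median over the 35 genes was -0.14 with the deposited log2 values and ranged from -0.55 to 0.13 when 1 library was left out. The count of genes lower in both numbers was 26 to 29 under the 6 alternatives run for it, 29 of 38 with no filter. Between the numbers, limma called 4452 genes, but 2163 under median scaling (1011 higher and 1152 lower, against 3942 and 510), 2187 under quantile scaling, 0 with the deposited log2 values, and 1162 to 4808 without 1 library. With the highest transcript the log2 fold change turned to 0.049 for Pdzk1ip1 and -0.39 for Palld, and with the deposited log2 values to 0.047 for Tek and -0.040 for Palld. Other log2 fold changes that moved by over 1.5 times without turning were, with a pseudocount of 0.1, Socs2 (0.36 to 0.78), Abcb1a (-0.15 to -0.25) and Palld (0.038 to 0.11). With the highest transcript they were Prdm16 (-0.20 to -0.045), Tek (-0.042 to -0.27), Angpt1 (-0.088 to -0.16) and Cd63 (0.022 to 0.0033), and under quantile scaling Angpt1 (-0.046) and Cd63 (0.0073). With the deposited log2 values they were Mecom (-0.070), Trim47 (-0.22), Gpr56 (-0.26), Ifitm1 (-0.030), Ifitm3 (-0.089), Pdzk1ip1 (-0.12), Prdm16 (-0.13), Fgd5 (0.11), Nkx2-3 (0.15), Eya2 (0.031) and Cd63 (0.28). In the fits of the deposited log2 values, each listed transcript of a gene had equal weight. A shift in a gene with several listed transcripts can thus come from a minor one. In Cd63, NM_001042580 held at most 2.27% of the gene but weighed as much as NM_007653. In Gpr56, NM_018882 held 3.77% to 6.01% and weighed as much as the leading transcript. Leaving out 1 library unbalances the numbers between genotypes and turned the sign of 26 of the 35 genes at least once, over ranges of -0.55 to 0.14 for Mecom, -0.64 to 0.11 for Hlf, -0.70 to 0.046 for Mllt3, -0.24 to 0.57 for Fgd5, -0.76 to 0.37 for Pdzk1ip1, -0.67 to 0.25 for Esam, -0.25 to 0.17 for Tek, -0.48 to 0.0897 for Prdm16, -0.74 to 0.50 for Ndn. The ranges were -0.71 to 0.29 for Fhl1, -2.01 to 0.17 for Sult1a1, -1.07 to 0.52 for Ltb, -0.50 to 0.29 for Ifitm1, -0.60 to 0.29 for Ifitm3, -0.52 to 0.16 for Txnip, -0.84 to 0.30 for Tgm2, -0.92 to 0.17 for Gda, -0.47 to 0.16 for Gpr56. They were -0.41 to 0.044 for Abcg2, -0.045 to 0.77 for Socs2, -0.62 to 1.07 for Nkx2-3, -0.79 to 0.10 for Krt18, -0.50 to 0.55 for Cd63, -0.27 to 0.35 for Palld, -1.03 to 0.27 for Art4, -0.29 to 0.43 for Eya2. The signs of the other 9 genes, Hmga2, Trim47, Clca1, Ctnnal1, Robo4, Tie1, Angpt1, Abcb1a and Aldh1a1, held in these 4 fits. Depth is unknown, so that no limit from counting can be given.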
